A study of Mus musculus with 4 samples.

Results

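Gas6, Pros1, Mfge8, Axl, Mertk, Timd4 and Stab1 are 7 genes of efferocytosis, the uptake of dying cells by phagocytes, and were read out of 32285 genes measured in single cells of mouse liver tumours. They were chosen by symbol, and all 7 symbols were found once each in the deposited matrices. A dying cell exposes the lipid phosphatidylserine on its surface. Bridging proteins bind that lipid and tie it to a receptor on the phagocyte. Gas6 ties it to the TAM receptor kinases Tyro3, Axl and Mertk, protein S (Pros1) to Tyro3 and Mertk, and Mfge8 to alpha-v integrins. Timd4 (TIM-4) and Stab1 (stabilin-1, also a scavenger receptor) bind the lipid directly. In the liver, Kupffer cells, the resident macrophages of the sinusoids, are known for TAM receptors and Timd4, and Stab1 is known from sinusoidal endothelium and resident-type macrophages.

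The cells came from liver metastatic tumours of MC38, a mouse colon carcinoma line, in C57BL/6J mice, cut away from the surrounding liver and enriched with anti-CD45 magnetic beads. Each of the 4 libraries stood for 1 diet with 1 tumour line: low-fat diet with the unmodified line (LFD_WT), low-fat diet with the Yap knockdown derivative shYap-MC38 (LFD_shYap), high-fat diet with the unmodified line (HFD_WT) and high-fat diet with the knockdown derivative (HFD_shYap). The mice themselves were wild type in every library, by the titles, and the knockdown was in the implanted tumour cells only. The labels used here give no age, sex, time on diet or number of mice per library, and they do not say whether shYap-MC38 is 1 clone. Without replicates, a difference between 2 libraries cannot be told apart from a difference between mice, preparations or sequencing runs. Intervals given with single libraries are exact 95% Poisson or Clopper-Pearson intervals and cover counting error only. Unless named otherwise, 4 values in a row stand in the order LFD_WT, LFD_shYap, HFD_WT and the library labelled HFD_shYap, and levels are CPM, the UMIs of a gene per 1000000 UMIs of the cells summed.

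Between 7281 and 11084 cells per library were kept, with 86531983 to 109840211 UMIs, and 22055 of 38243 kept cells were mononuclear phagocytes (5921, 5675, 6033 and 4426). Any 2 libraries shared 33 to 63 barcodes, at most 0.459% of the smaller one. The CD45 gene Ptprc was at 296 to 346 CPM in phagocytes and at 8.52 to 12.7 CPM in Ptprc-low cells. The latter are 1320 fibroblast-like, 1050 tumour-like and 51 mixed Igfbp7-high cells, and numbered 768, 795, 711 and 147 by library. Some labels were in doubt. The title of LFD_shYap gives a low-fat diet and its treatment field a high-fat diet. Xist, made by female cells, was at 355 CPM in HFD_shYap against 3 to 6 UMIs in each other library, while Y-linked genes were read in all 4, so HFD_shYap held cells of both sexes. Yap1 in Ptprc-low cells was at 21.2, 17.9, 16.8 and 22.3 CPM, from 398, 337, 307 and 146 UMIs. Under the high-fat diet Yap1 RNA was thus not lower in the library labelled as the knockdown, and HFD_shYap is used as a label only. Fibroblast-like cells are part of that sum, and whether they were host cells without the knockdown was not tested. Y-linked genes summed to 4.90, 5.57, 7.94 and 6.28 CPM in Ptprc-low cells, against 129, 133, 133 and 108 CPM in phagocytes.

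In GRCm38 all 7 are protein-coding genes on different chromosomes except Mfge8 and Axl, which both lie on chromosome 7. Gas6 (ENSMUSG00000031451) spans chr8:13465374-13494490 on the minus strand, and Stab1 (ENSMUSG00000042286) spans chr14:31139013-31168641 on the minus strand. Timd4 (ENSMUSG00000055546) spans chr11:46810800-46844332 on the plus strand, and Mertk (ENSMUSG00000014361) chr2:128698956-128802894 on the plus strand. Pros1 (ENSMUSG00000022912) spans chr16:62854307-62929346 on the plus strand, Mfge8 (ENSMUSG00000030605) chr7:79133768-79149060 and Axl (ENSMUSG00000002602) chr7:25757273-25788705, both on the minus strand. Mertk was the only member that the annotation overlaps with another gene on the same strand, Gm23172.

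Promoters are shown for Gas6 and Stab1, because these were the 2 members with the most alike levels over cell types. Each is the RefSeq sequence (GRCm38.p6) of the 250 bases before the annotated start, 5′ to 3′ on the gene's strand, with motif matches in capitals.
Gas6, chr8:13494536-13494785, minus strand, capitals mark the GC box GGGCGG read as CCGCCC on the opposite strand: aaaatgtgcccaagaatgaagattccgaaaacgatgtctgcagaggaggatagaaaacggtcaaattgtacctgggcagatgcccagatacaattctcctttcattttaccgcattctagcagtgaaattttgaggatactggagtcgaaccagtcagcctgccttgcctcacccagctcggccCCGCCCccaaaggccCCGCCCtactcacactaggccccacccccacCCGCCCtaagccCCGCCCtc
Stab1, chr14:31168642-31168891, minus strand, capitals mark the PU.1-type core AGGAAG: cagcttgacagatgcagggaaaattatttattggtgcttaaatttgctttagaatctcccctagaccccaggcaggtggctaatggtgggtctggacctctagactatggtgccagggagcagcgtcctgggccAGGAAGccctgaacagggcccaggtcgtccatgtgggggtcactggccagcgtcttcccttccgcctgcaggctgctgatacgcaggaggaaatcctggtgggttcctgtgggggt
The Gas6 sequence held 4 GC box matches, at -66 to -61, -51 to -46, -20 to -15 and -8 to -3 from the start. The Stab1 sequence held AGGAAG at -116 to -111 and no GC box. Such letters are common: among 32851 mouse promoters of the same length, searched on both strands, 32.7% held GGGCGG and 29.5% AGGAAG. An interferon response type motif (GAAA, any 2 bases, GAAA, in 2.98% of promoters) and CACGTG (E-box, in 6.02%) were searched as well and had no match in any of the 7 members. Gas6 and Stab1 shared none of the 4 motifs searched.

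Gas6, the bridging ligand with the broadest TAM binding, was mostly phagocyte RNA in these tumours. Phagocytes held 93.8% of its UMIs with 68.4% of all UMIs, and the Lyve1/Folr2 resident-like macrophages alone held 36.2% with 13.8% of all UMIs. Summed over libraries it was at 226 CPM in resident-like macrophages, 182 in Mmp19-high macrophages, 138 in interferon-state macrophages and 11.6 in Ly6c2/Chil3 monocyte-like cells. The order of the first 2 states did not hold by library: Gas6 was at 238, 169, 220 and 275 CPM in resident-like and at 241, 102, 171 and 193 CPM in Mmp19-high macrophages, so their ranges overlap. Fibroblast-like cells had 7.11 CPM and tumour-like cells 3.39 CPM.

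Over all phagocytes, Gas6 was at 158 CPM (155 to 161), 94.3 (92.1 to 96.6), 91.2 (89.1 to 93.4) and 141 (138 to 144). The first and last libraries were high and the middle ones low. High-fat over low-fat was therefore 0.577 (0.559 to 0.596) between the WT libraries and 1.49 (1.45 to 1.54) between the libraries labelled shYap. The states were not mixed alike: resident-like macrophages made up 41.0%, 16.4%, 10.3% and 14.7% of the phagocytes, and MHC class II-high Cxcl9 macrophages 10.2%, 12.3%, 35.7% and 14%. Another 39.8% of LFD_shYap phagocytes were Jaml-high macrophages, which had at most 20 cells in each other library, and 24.9% of those in the library labelled HFD_shYap were Mmp19-high macrophages.

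Within states the order changed for Gas6. LFD_shYap had the lowest Gas6 level in 9 of the 9 states that had at least 20 cells in every library, while LFD_WT was highest in 7 of them and the library labelled HFD_shYap in the other two. Among 5498 genes with at least 1000 phagocyte UMIs in every library, 38 (0.691%) were lowest in LFD_shYap in all 9 states. HFD_WT was below LFD_WT in all 9 states, with 220 against 238 CPM in resident-like and 89.3 against 116 CPM in cycling macrophages. These orders over states, and those given below for other members, were looked for after the values were seen. With every state given equal weight, Gas6 was at 122, 69.2, 95.3 and 111 CPM. Whether the mix of states produced the rest of the difference in the sum was not tested.

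**Figure D1:**
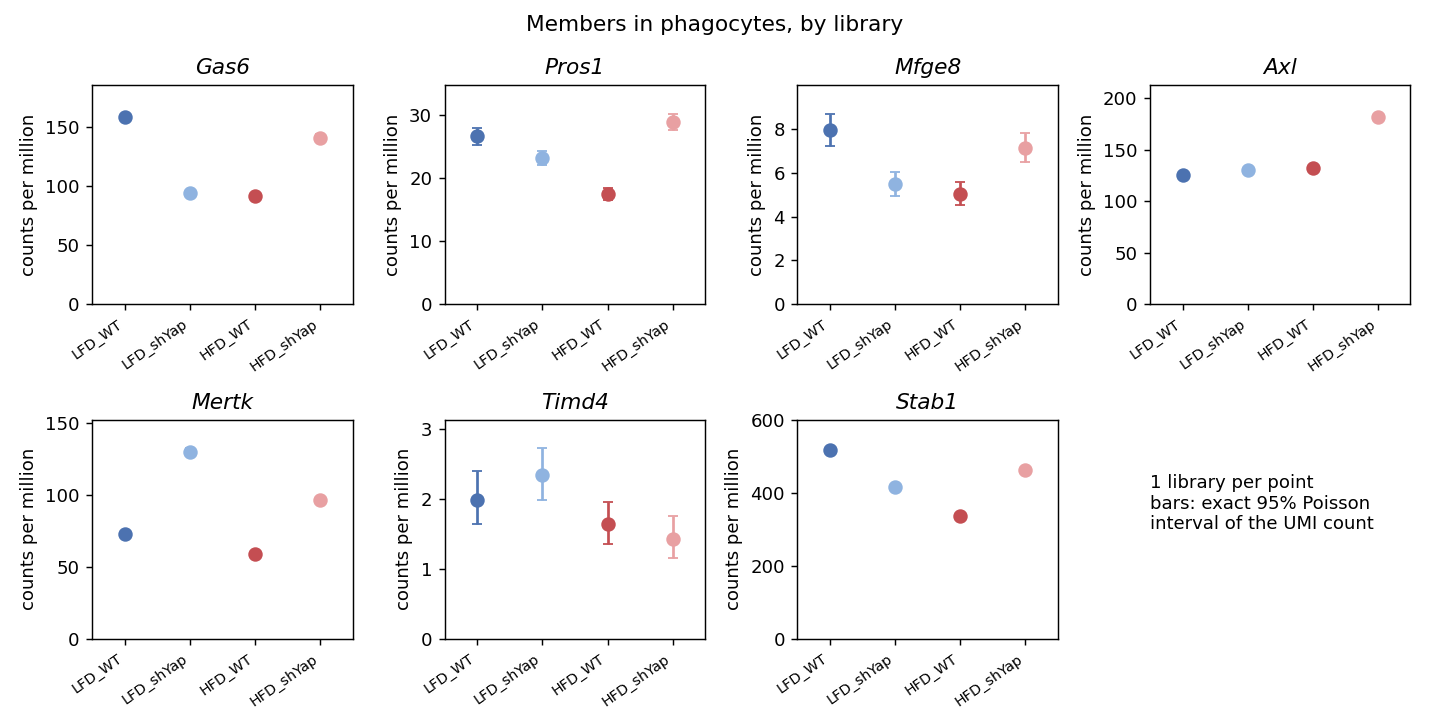
Level of each member in phagocytes of each library, in CPM on the y axis, with exact 95% Poisson intervals as bars and 1 library per point. Gas6, Pros1, Mfge8 and Stab1 were lower in HFD_WT than in LFD_WT, while of the shYap libraries the one labelled HFD_shYap was the higher, and Mertk was higher in each shYap library than in the WT library of the same diet.

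Pros1, protein S, the other TAM ligand and also an anticoagulant of plasma, had a flatter spread over macrophages. Phagocytes held 91.2% of its UMIs. It was at 39.4 CPM in Kupffer-like cells, 31.1 in resident-like and 27.3 in Arg1/Saa3 macrophages, against 13.5 in monocyte-like cells and 2.61 in T cells. The first 3 of these do not separate by library, since Kupffer-like cells had 44.6, 30.3, 39.0 and 48.0 CPM, resident-like macrophages 31.3, 31.0, 21.5 and 38.3 CPM, and Arg1/Saa3 macrophages 26.7, 48.1, 16.3 and 28.1 CPM. Over all phagocytes Pros1 was at 26.7, 23.2, 17.5 and 28.9 CPM, lowest in HFD_WT. The high-fat over low-fat ratio was 0.657 (0.61 to 0.708) between the WT libraries and 1.25 (1.16 to 1.33) between those labelled shYap. The library labelled HFD_shYap was the highest in 8 of 9 states, a pattern of all or all but 1 state that 8.68% of the 5498 genes had.

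Mfge8, the integrin bridge, was the member whose UMIs lay mostly in Ptprc-low cells. Ptprc-low cells held 73.1% of its UMIs with 16.1% of all UMIs. Its level was 116 CPM in fibroblast-like cells, 99.4 in tumour-like cells and 43.8 in cDC2-like dendritic cells (cDC2 and cDC1 are the conventional dendritic cell types), against 6.27 CPM in phagocytes. By library, Ptprc-low cells had 110, 107, 101 and 123 CPM, and cDC2-like cells 46.0, 37.4, 46.2 and 42.8 CPM, so these groups do not overlap. The small mixed Igfbp7 cluster had 399, 132, 258 and 193 CPM from only 2, 8, 30 and 11 cells.

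The low Mfge8 level of phagocytes was no higher than that of T cells, a class not known as a source. Phagocytes had 7.93, 5.47, 5.02 and 7.12 CPM and T cells 9.57, 7.80, 6.45 and 9.96 CPM. After each cell was thinned to 1000 UMIs, 0.659%, 0.670%, 0.614% and 0.791% of phagocytes and 0.735%, 0.876%, 0.601% and 1.26% of T cells had an Mfge8 UMI. Median depths before thinning were 8154 to 12066 UMIs in phagocytes and 4643 to 6566 in T cells. No phagocyte expression is read from shares at about the T cell level, and their source was not tested. The 14 fibroblast and tumour markers together stood at 0.239% to 0.555% of their Ptprc-low level in phagocytes, whereas Mfge8 stood at 4.95% to 7.20% of its own, so the 2 were not in 1 ratio. Nrg1/Ccr2 macrophages, whose leading genes include Ccr2 and MHC class II genes, had 28.7, 7.04, 7.52 and 12.9 CPM. In LFD_shYap, where that value rests on 8 UMIs, cycling macrophages were higher, at 8.48 CPM.

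**Figure D2:**
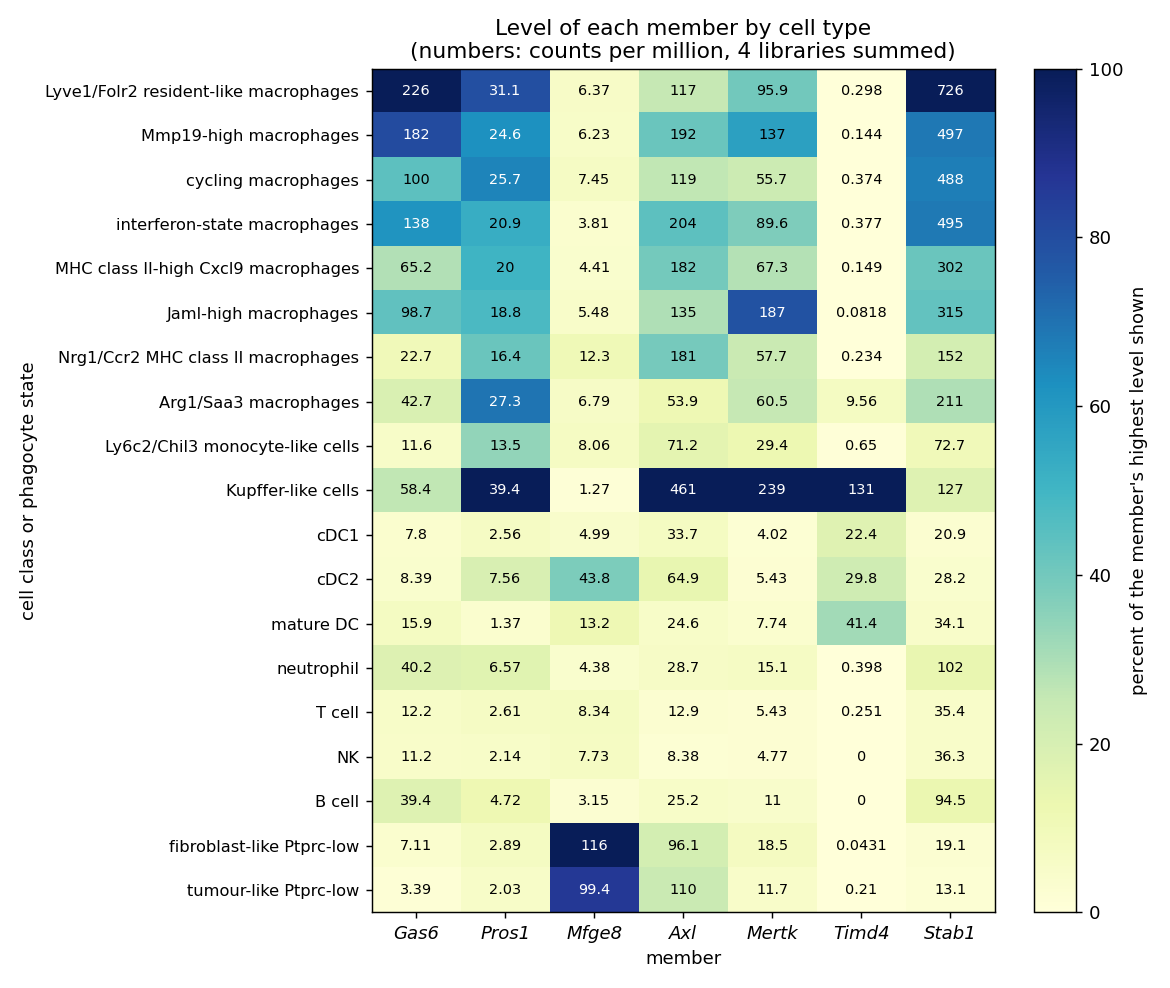
Level of each member by cell class or phagocyte state, summed over 4 libraries; numbers are CPM and colour is the percent of that member's highest level among those drawn. Gas6 and Stab1 peaked in resident-like macrophages, Axl, Mertk, Pros1 and Timd4 in Kupffer-like cells, and Mfge8 in fibroblast-like cells.

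Axl, the TAM receptor that Gas6 activates, was in phagocytes and in Ptprc-low cells. Phagocytes held 81.3% of its UMIs and Ptprc-low cells 14.1%. It was highest in Kupffer-like cells (461 CPM), followed by interferon-state (204), Mmp19-high (192), MHC class II-high (182) and Nrg1/Ccr2 macrophages (181), and resident-like macrophages had 117. These 4 states after the Kupffer-like cells overlapped in their library ranges, from 135 to 245 CPM. Kupffer-like cells, with 517, 428, 386 and 514 CPM, lay above the values of every other state in every library. Arg1/Saa3 macrophages had 41.4, 44.1, 52.7 and 68.3 CPM.

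Over all phagocytes Axl was at 126, 130, 133 and 182 CPM, so the library labelled HFD_shYap stood above the others, which ran from 126 to 133 CPM. Its ratio to HFD_WT was 1.37 (1.34 to 1.41) and to LFD_shYap 1.40 (1.36 to 1.44). It had the highest Axl in 8 of 9 states, among them Nrg1/Ccr2 macrophages with 159, 146, 135 and 236 CPM. Being highest in that library is common, at 43.2% of 12313 genes in the phagocyte sum. In all or all but 1 state it was found for 8.68% of 5498 genes. In Ptprc-low cells Axl was at 116, 101, 91.2 and 119 CPM. Free phagocyte RNA, scaled by the C1q genes that these cells also showed, would give 3.70, 2.93, 3.47 and 4.50 CPM. In dendritic cells it was at 87.5, 49.1, 49.7 and 77.5 CPM in cDC2-like and 45.9, 17.5, 23.5 and 43.9 CPM in cDC1-like cells.

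Mertk, the TAM receptor most used by resting macrophages, was higher in both shYap libraries than in either WT library. It was at 73.0 CPM (70.8 to 75.3), 130 (127 to 132), 58.9 (57.2 to 60.7) and 96.3 (93.9 to 98.7). The shYap over WT ratio was 1.78 (1.71 to 1.84) under the low-fat diet and 1.63 (1.57 to 1.70) under the high-fat diet. A ratio above 1 under both diets was found for 26.7% of 12313 genes. Above 1.5, a cut not set in advance, there were 86 (0.698%). High-fat over low-fat was 0.806 (0.773 to 0.842) and 0.742 (0.718 to 0.766), below 1 in both pairs.

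Part of the Mertk level of LFD_shYap lay in the Jaml-high macrophages, which had 188 CPM there. Other states kept the same order between lines. The shYap library was above the WT library in 8 of 9 states under each diet, a pattern shared by 121 of the 5498 genes (2.20%). MHC class II-high macrophages had 70.4, 109, 48.3 and 84.8 CPM, and resident-like macrophages 89.4, 108, 83.6 and 108 CPM. The exceptions were the Kupffer-like cells under the low-fat diet, with 285 against 246 CPM, and the monocyte-like cells under the high-fat diet, with 23 against 19.3 CPM. HFD_WT had the lowest Mertk in 8 of 9 states. Summed over libraries, Mertk was at 239 CPM in Kupffer-like, 187 in Jaml-high, 137 in Mmp19-high and 29.4 in monocyte-like cells. Ptprc-low cells had 13.8, 17.9, 10.5 and 14.5 CPM, where free phagocyte RNA scaled by C1q would give 1.54 to 2.93 CPM.

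**Figure D3:**
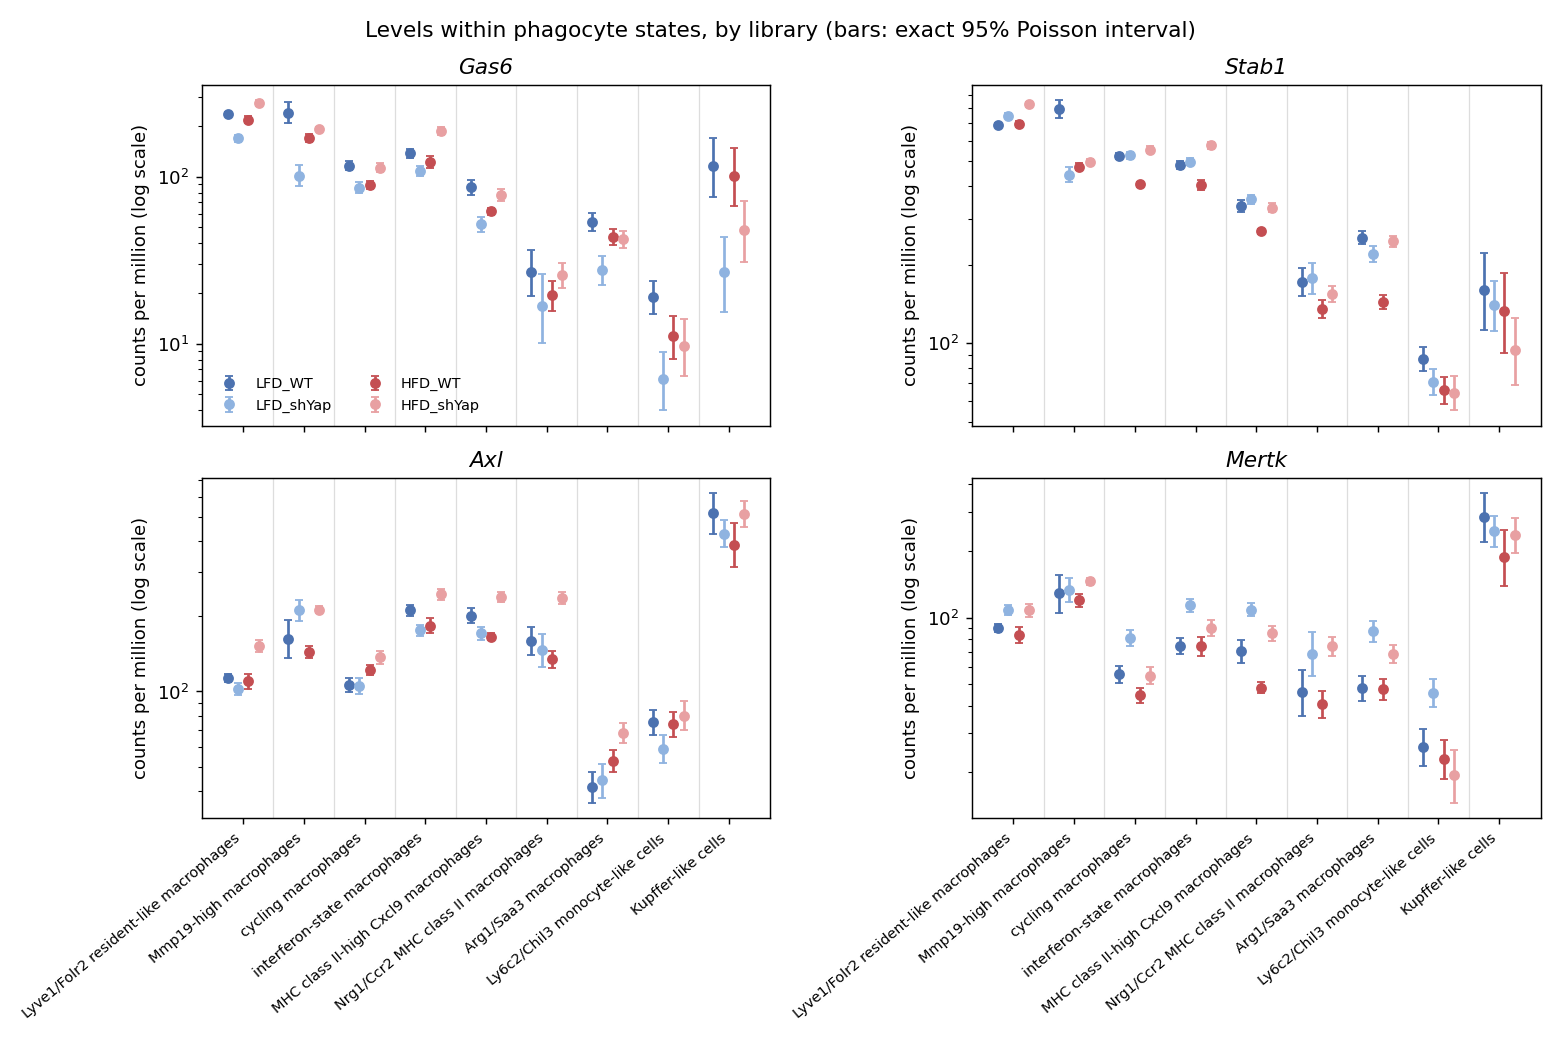
Levels of Gas6, Stab1, Axl and Mertk within 9 phagocyte states, in CPM on a log scale, with 1 point per library and exact 95% Poisson intervals. Gas6 was lowest in LFD_shYap in all 9 states, Axl was highest in the library labelled HFD_shYap in 8, and Mertk was lowest in HFD_WT in 8.

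Timd4, the direct phosphatidylserine receptor TIM-4, was confined in these libraries to small populations. Dendritic cells held 50.4% of its UMIs and phagocytes 46.8%. The 148 Kupffer-like cells, defined by Clec4f, Vsig4, Cd5l, Clec1b and Marco, had 131 CPM, mature dendritic cells 41.4, cDC2-like cells 29.8, cDC1-like cells 22.4 and Arg1/Saa3 macrophages 9.56 CPM. Every other phagocyte state, summed over libraries, was at or under 0.65 CPM, resident-like macrophages being at 0.298 CPM. T cells had 0.251 CPM.

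In Kupffer-like cells Timd4 was at 219 CPM (162 to 289), 165 (134 to 201), 97.6 (63.2 to 144) and 70.0 (48.7 to 97.3). Both low-fat libraries were above both high-fat libraries. These values rest on 49, 98, 25 and 35 UMIs in 32, 55, 20 and 41 cells. High-fat over low-fat was 0.447 (0.264 to 0.737) between the WT libraries and 0.424 (0.28 to 0.63) between those labelled shYap. Axl in the same cells did not separate by diet, and Mertk was at 285, 246, 187 and 236 CPM with overlapping intervals. The 6 endothelial markers summed to 161, 205, 117 and 150 CPM in these cells, against 10.5 to 21.6 CPM in all phagocytes, and their part in the level was not tested. With 1 library a group and so few cells, no test of this difference was made, and under the diet of the treatment field LFD_shYap would join the high-fat libraries.

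Among dendritic cells, Timd4 was at 26.7, 25.7, 28.7 and 36.1 CPM in cDC2-like cells and at 25.8, 9.80, 20.1 and 28.9 CPM in cDC1-like cells. Mature dendritic cells, which carry Ccr7, had 17.4, 0, 59.6 and 44.2 CPM. The 0 comes from 21 cells, in which a floor of 3 counts would stand at 24.2 CPM. In Arg1/Saa3 macrophages, which hold cells with the peritoneal-type gene Prg4, Timd4 was at 10.3, 13.3, 11.5 and 5.20 CPM. The 115 of these cells with a Prg4 UMI had 31.0 CPM against 7.16 CPM in the 1769 without one. By library that contrast was 76.7 against 6.33, 32.9 against 5.94, 2.40 against 12.1 and 27.9 against 3.07 CPM, so HFD_WT, with 1 Timd4 UMI in 19 Prg4-bearing cells, went the other way.

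Stab1, stabilin-1, was the most phagocyte-bound member. Phagocytes held 94.6% of its UMIs, and resident-like macrophages 32.5%. It was at 726 CPM in resident-like, 497 in Mmp19-high, 495 in interferon-state and 488 in cycling macrophages, against 127 in Kupffer-like and 72.7 in monocyte-like cells. The last 3 of these 4 macrophage states overlapped between libraries, from 406 to 792 CPM, and resident-like macrophages, with 688, 748, 693 and 828 CPM, reached into that range. Over all phagocytes Stab1 was at 516 CPM (511 to 522), 416 (411 to 421), 336 (332 to 341) and 464 (459 to 469). HFD_WT was the lowest, and high-fat over low-fat was 0.652 (0.641 to 0.663) between the WT libraries and 1.12 (1.10 to 1.13) between those labelled shYap. Within resident-like macrophages the unmodified-line libraries were nearly level, at 688 CPM in LFD_WT and 693 CPM in HFD_WT. HFD_WT was below LFD_WT in 8 of 9 states, such as cycling macrophages with 524 and 407 CPM. Ptprc-low cells had 17, 12.9, 19.4 and 19 CPM of Stab1, where free phagocyte RNA scaled by C1q would give 15.2, 9.40, 8.81 and 11.5 CPM.

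**Figure D4:**
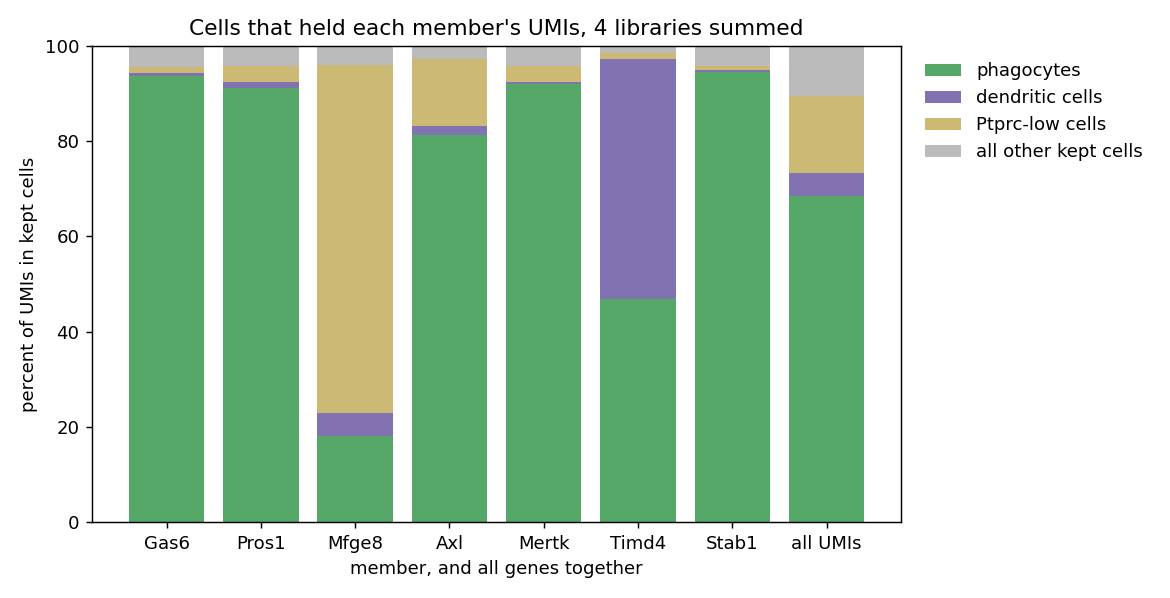
Percent of each member's UMIs, on the y axis, held by groups of kept cells, with the share of all UMIs in the last bar, 4 libraries summed. Phagocytes held 93.8% of Gas6, 91.2% of Pros1, 81.3% of Axl, 92.0% of Mertk and 94.6% of Stab1 UMIs, Ptprc-low cells 73.1% of Mfge8 UMIs, and dendritic cells 50.4% of Timd4 UMIs.

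Detection per cell was compared between phagocytes and T cells only. With every cell thinned to 1000 UMIs, a Gas6 UMI was found in 12.2%, 7.58%, 6.65% and 11.2% of phagocytes against 1.84%, 1.05%, 1.60% and 1.13% of T cells. A Mertk UMI was found in 6.72%, 12.1%, 4.81% and 8.70% of phagocytes against 0.919%, 1.93%, 0.601% and 0.378% of T cells. Without thinning, 53.5%, 44.3%, 40.3% and 52.9% of phagocytes had a Gas6 UMI and 41.3%, 64.1%, 38.8% and 59.6% a Mertk UMI. For 6 of the 7 members the phagocyte share was above the T cell share in all 4 libraries, and Mfge8 was the exception, above it in 1 library. Timd4 was among the 6 with only 0.152%, 0.159%, 0.0663% and 0.0678% of phagocytes, against 0% of T cells. How many of all genes had a phagocyte share above the T cell share was not counted.

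Detection of ligand and receptor RNA in the same cells was then compared. Among phagocytes thinned to 5000 UMIs, Stab1 was found in 89.1%, 81.7%, 79.9% and 86.0% of cells with a Gas6 UMI, against 68.6%, 63.9%, 54.3% and 60.6% of cells without one. Axl was found in 42.9%, 44.5%, 47.2% and 56.9% of Gas6-bearing cells and in 40.7%, 42.4%, 43.1% and 50.5% of the others. For Mertk the shares were 35%, 47.0%, 28.2% and 40.5% against 23.2%, 42.0%, 19.2% and 30.3%. The Mertk and Stab1 shares were higher in Gas6-bearing cells in each library beyond the exact 95% intervals. For Axl the intervals overlapped in LFD_WT (40.8 to 45.0 against 38.9 to 42.6), LFD_shYap and HFD_WT. States that differ in Gas6 were pooled here, and their part in these shares was not tested.

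Levels over 23 cell classes and phagocyte states of at least 100 cells were compared between genes as log2(CPM + 1), a description over units that share libraries. Gas6 and Stab1 had a Pearson r of 0.96, Pros1 and Mertk 0.88, Axl and Mertk 0.81, and Gas6 and Mfge8 -0.59. Of 8626 genes, those most like Gas6 were Slco2b1, an organic anion transporter (r 0.961), Hpgds, a prostaglandin D synthase (0.961), and Stab1. Those most like Stab1 were Col14a1 (0.983), the mannose receptor Mrc1 and Nxpe5, and those most like Mertk were Slc38a7 (0.971), Mfsd1 and Slc17a5. Pros1 was most like Ctsa, the lysosomal cathepsin A (0.969), Cln8 and Slc7a8, and Axl most like Plbd2 (0.927), Plxnb2 and Dip2c. Mfge8 was most like Plat, tissue plasminogen activator (0.928), Ank and Aif1l. For Timd4 the nearest, Zfp366 of dendritic cells, reached only 0.83, followed by Il6 and Xlr.

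To ask which genes differ by diet and which by tumour line, UMI counts summed per library were tested with edgeR's quasi-likelihood test and Benjamini-Hochberg adjustment over all genes tested. This additive fit has 1 residual degree of freedom and counts opposite diet effects in the 2 lines as error. The test also borrows from the spread of the other genes, so a p-value does not rest on that 1 degree of freedom alone. In phagocytes 102 of 14099 genes (0.723%) passed an adjusted p of 0.05 for diet and 3 (0.0213%) for tumour line. By direction, 0.468% of genes were higher and 0.255% lower with the high-fat diet, and 0.00709% were higher and 0.0142% lower in shYap. Of the members, 0 of the 7 passed either. At an unadjusted p under 0.05 there was 1 member for diet and 1 for line, Mertk both times, beside 6.62% of all genes for diet and 7.03% for line.

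Mertk came nearest. For tumour line in phagocytes its log2 fold change was 0.74 (SE 0.17), with an edgeR p of 0.00124 and an adjusted p of 0.318, and it was higher in shYap in both diets. Diet gave -0.43 (SE 0.17; edgeR adjusted p 0.593). Gas6 had a fitted diet difference of -0.17 (SE 0.24; edgeR adjusted p 1.0), which averages the low ratio of the WT pair with the high ratio of the shYap pair. The fitted diet values of the other members were -0.21 for Pros1, -0.20 for Mfge8, 0.22 for Axl, -0.56 for Timd4 and -0.29 for Stab1, beside a median of -0.01 over all genes. For tumour line, Pros1 had 0.24, Axl 0.22, Stab1 0.05 and the other three between -0.08 and 0.00.

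In Ptprc-low cells 352 of 12851 genes (2.74%) passed for diet, 2.40% higher and 0.342% lower, and 0 (0%) for tumour line in edgeR. There 808 (6.29%) had an unadjusted p under 0.05 for line, and DESeq2 called 11. The library labelled HFD_shYap gave only 147 Ptprc-low cells, 75 fibroblast-like, 61 tumour-like and 11 mixed Igfbp7 cells. None of the 6 members tested passed in either comparison, and Timd4 was too low there to be tested. The largest fitted diet value was that of Pros1, at 0.82 (SE 0.36; edgeR adjusted p 0.347), from 3.35, 2.54, 3.89 and 7.35 CPM. The mixed Igfbp7 cells, where Pros1 was at 71.4 CPM, numbered 2, 8, 30 and 11, and without them the diet value of Pros1 was -0.19 in fibroblast-like and -0.06 in tumour-like cells. Mfge8 had 0.01 and Axl -0.09.

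**Figure D5:**
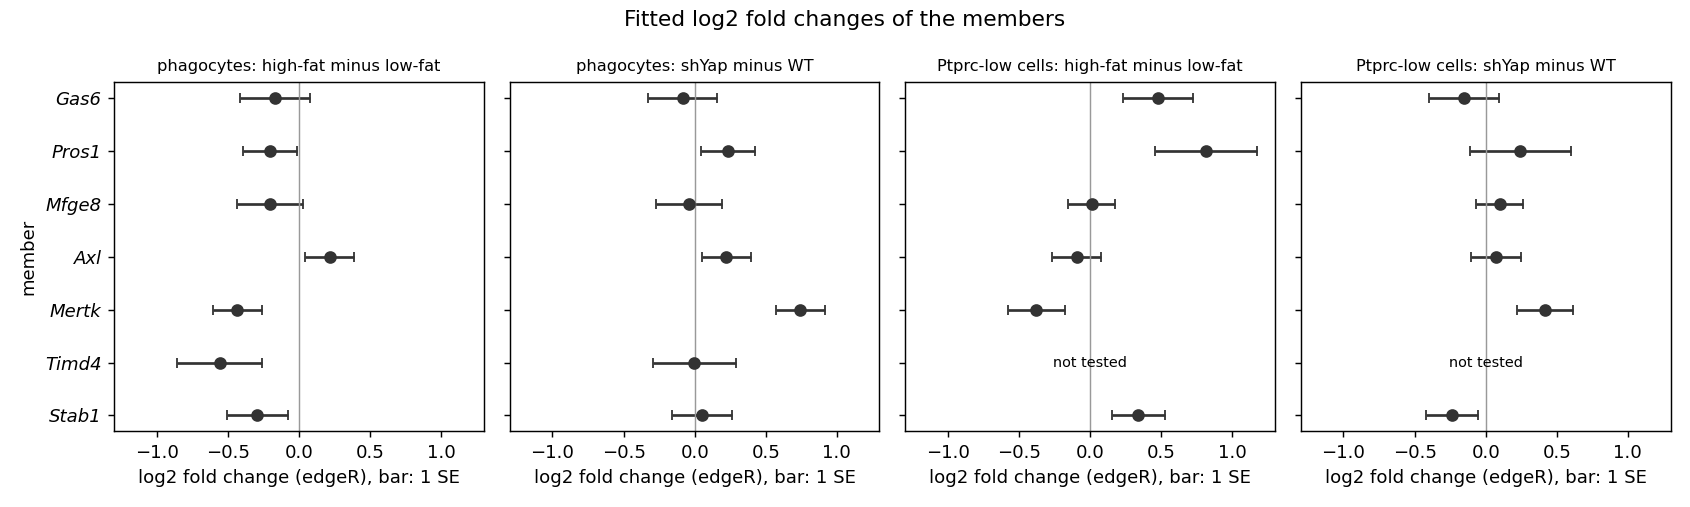
Fitted log2 fold changes of the members from edgeR on the x axis, high-fat minus low-fat or shYap minus WT, in phagocytes and in Ptprc-low cells, with 1 SE as the bar. None passed an adjusted p of 0.05, and Mertk for tumour line in phagocytes, at 0.74, lay farthest from 0 relative to its SE.

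The wider efferocytosis pathway was read with 66 further genes in 7 lists, of which 61 could be tested in each comparison. For diet in phagocytes 1 of 61 rose and 0 fell, where 0.468% of all genes rose and 0.255% fell. It was Gpr132, a receptor for lysophospholipids that dying cells release, with 31.1, 27.3, 53.2 and 63.9 CPM, a log2 fold change of 0.94 (SE 0.16) and an edgeR adjusted p of 0.0268. Both high-fat libraries were above both low-fat libraries. The call did not hold without LFD_shYap, without HFD_WT or without the library labelled HFD_shYap (edgeR adjusted p 0.12, 0.112 and 0.169), nor with the diet of the treatment field (0.947). Of the remaining lists, 0 of 13 other receptors, 0 of 8 other bridging molecules and opsonins, 0 of 8 engulfment genes, 0 of 5 do-not-eat-me genes, 0 of 13 digestion and lipid efflux genes and 0 of 6 TAM sheddases and feedback genes passed. At an unadjusted p under 0.05 there were 8 of the 61, beside 6.62% of all genes, and the median log2 fold change over the 61 was 0.06, beside -0.01 over all genes. For tumour line in phagocytes 0 of 61 passed and 2 had an unadjusted p under 0.05, beside 7.03% of all genes.

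In Ptprc-low cells 4 of 61 pathway genes rose with the high-fat diet and 0 fell, where 2.40% of all genes rose. Itgb3, an integrin beta chain that pairs with alpha-v, was at 0.958, 1.27, 3.51 and 8.42 CPM (log2 fold change 2.27, SE 0.38, edgeR adjusted p 0.0164). S1pr1, a receptor for the find-me lipid sphingosine-1-phosphate, was at 2.5, 2.81, 6.90 and 12.7 CPM (edgeR adjusted p 0.0113). Pecam1, a homophilic adhesion molecule of endothelium and leukocytes, was at 3.25, 2.39, 9.81 and 25.6 CPM (edgeR adjusted p 0.00713), and Gpr132 at 1.65, 2.70, 8.60 and 7.19 CPM (edgeR adjusted p 0.0267). All 4 of these genes were higher in both high-fat libraries. Itgb5, another beta chain that pairs with alpha-v, did not pass, at 70.3, 80.5, 56.1 and 85.4 CPM (log2 fold change -0.15, edgeR adjusted p 0.786). The 6 endothelial markers, Pecam1 among them, summed to 18.3, 20.7, 80.7 and 147 CPM in the same cells. Counted in fibroblast-like cells alone, the log2 fold change was 0.39 for Pecam1, 0.50 for S1pr1, 0.93 for Itgb3 and 1.63 for Gpr132, and of the 4 only Gpr132 still passed (edgeR adjusted p 0.01253). In tumour-like cells alone these were 0.04, 0.53, 2.28 and 2.42, and again only Gpr132 passed (edgeR adjusted p 0.00497). S1pr1, Itgb3 and Gpr132 did not pass without the library labelled HFD_shYap, nor Gpr132 without HFD_WT. With the diet of the treatment field or without doublet removal, none of the 4 passed (edgeR adjusted p 0.469 to 0.867 and 0.159 to 0.278). Tumour line gave 0 of 61 there, with 6 at an unadjusted p under 0.05, beside 6.29% of all genes.

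The library labelled HFD_shYap could be split by Xist into cells with a Xist UMI and cells with Y-linked UMIs and no Xist. Its 1618 Xist-bearing and 2123 Y-bearing phagocytes had 137 and 151 CPM of Gas6, 179 and 184 CPM of Axl, 85.3 and 104 CPM of Mertk, 33.5 and 26.2 CPM of Pros1, and 522 and 447 CPM of Stab1. Axl in both parts was above the values of the 3 other libraries. Mertk in both parts lay between the WT libraries and LFD_shYap. Y-linked UMIs were not excluded from the Xist-bearing part, so this is not a strict split by sex. Cells with neither were left out. The mix of states also differed, with 319 Mmp19-high macrophages in the Xist-bearing part and 648 in the other, and its effect was not tested. Timd4 was at 2.51 CPM in the Xist-bearing part, with 63 UMIs, and at 0.461 CPM in the other, with 15. In the 41 Kupffer-like cells of this library, 28 of the 35 Timd4 UMIs were in the 21 Xist-bearing cells.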

How the data were processed

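Single-cell RNA was measured in 4 libraries, made with 10x Genomics 3′ v3.1 chemistry per the labels' protocols. The authors deposited raw UMI counts, which were not normalized. Per the file headers these came from Cell Ranger 6.0.0, whereas Cell Ranger 4.0.0, STAR 2.5.1 and mm10 are listed in the submitters' processing notes, so the version is given inconsistently. A 3′ count says nothing on splice forms. How the authors chose the deposited barcodes is not stated there.

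Groups were taken from the titles. Barcodes with at least 200 genes and under 15% mitochondrial UMIs were kept. Barcodes were scored against simulated doublets, and those scoring highest were removed at an expected 0.8% per 1000 barcodes (1486, 942, 1356 and 605). Clustering used 2000 variable genes without the 7 members, 30 components, 15 neighbours and Leiden resolution 1 (Python 3.11.15, leidenalg 0.10.2), and gave 29 clusters. Clusters were named by fixed markers, and 4 clusters of low depth stayed unnamed. CPM are UMIs of a gene per 1000000 UMIs of the cells summed. Free phagocyte RNA was scaled as the C1q level of a class, in percent of the phagocyte level, times the member's phagocyte level.

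Summed counts were tested with edgeR 4.0.16 (R 4.3.3), with TMM, filterByExpr, diet and line as additive terms and Benjamini-Hochberg adjustment at 0.05, after tests on simulated data. The p-values rest on the spread among 4 libraries alone, which may be technical. Each SE was derived from the edgeR test, as the absolute log2 fold change divided by the square root of its F statistic. DESeq2 1.42.0, other filters and cell sets and leaving out each library were alternatives. Named were all 7 members, pathway genes that passed and the 3 genes most like each member, among genes with at least 20 CPM in 1 unit or more. The 7 members and the lists were chosen with earlier results of these data known. Coordinates are those of GENCODE M21, which matched 32158 of 32285 identifiers, and promoters those of RefSeq (GRCm38.p6), in which all 7 members were found.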

Additional observations from a re-analysis of the deposited data

Results flagged for a closer look

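For 4 members the high-fat over low-fat ratio in phagocytes lay below 1 between the WT libraries and above 1 between the libraries labelled shYap. The difference between these ratios was not tested, since each rests on 1 library per arm. Gas6 had 0.577 and 1.49, Pros1 0.657 and 1.25, Mfge8 0.633 and 1.3, and Stab1 0.652 and 1.12. The same direction was found for 41.0% of the 12313 genes with at least 20 UMIs in every library, and for 26% after each pair's median was subtracted, so the direction alone is common. The Mfge8 values lie at a level that T cells also showed. Within states, Gas6 was in this order in all 9 states, as were 101 of 5498 genes (1.84%), and Stab1 was above 1 between the libraries labelled shYap in 5 of 9.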

How the results depend on the processing

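No paired analysis was possible because the labels give 1 library per combination and no replicate numbers. Each main fit has 1 residual degree of freedom, and depth limits the values of Kupffer-like, mature dendritic and mixed Igfbp7 cells, which rest on few cells. Ptprc-low values of the library labelled HFD_shYap rest on 147 cells. Fits without 1 library used the tested factor alone. The cell sets without monocyte-like cells, of fibroblast-like or tumour-like cells only, and the weighting over clusters with 20 cells per library were chosen after seeing the data. Causes of the changes below were not tested.

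Genes called for diet in phagocytes (102) came to 60 with DESeq2's size factors, 332 without a filter, 36 with diet alone, 40 with the treatment field's diet, 44 without doublet removal, 23 with only Xist-bearing cells of HFD_shYap, 157 without monocyte-like cells, and 28 to 327 leaving out 1 library. For tumour line in phagocytes (3) there were 24 with DESeq2, 154 without a filter, 0 with line alone, 0 without doublet removal, 13 at a 10% mitochondrial limit, 6 with the members among the clustering genes, 0 with only Xist-bearing cells, 13 thinned to 2000 UMIs, 7 without monocyte-like cells, and 0 to 22 leaving out 1 library. For diet in Ptprc-low cells (352) there were 210 with DESeq2, 901 without a filter, 187 with diet alone, 0 with the treatment field's diet, 28 without doublet removal, 217 at the 10% limit, 145 in fibroblast-like and 172 in tumour-like cells only, and 94 to 788 leaving out 1 library. For line in Ptprc-low cells (0) there were 3 with DESeq2's size factors, 11 with DESeq2, 150 without a filter, 38 in fibroblast-like and 9 in tumour-like cells only, and 0 to 1 leaving out 1 library.

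Of 392 member fold changes under an alternative, 351 kept their sign and stayed uncalled and 40 changed sign, with none called. The other, Mertk for line in phagocytes without a filter, passed at 0.75 (edgeR adjusted p 0.0121; 0.0121 to 0.9997 over 16 alternatives). Of 72 fold changes of called pathway genes under an alternative, 26 lost the call and none changed sign.

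Signs changed as follows (log2). With the treatment field's diet, Mfge8 for diet in Ptprc-low cells was -0.0238 and, for line in phagocytes, Timd4 was 0.1752, Mfge8 0.2698 and Gas6 0.3033. Without doublet removal, Stab1 and Gas6 for diet in Ptprc-low cells were -0.6053 and -0.7052, Gas6 for line there was 0.0069, and Timd4 and Mfge8 for line in phagocytes were 0.0281 and 0.047. Without a filter, Mfge8 for diet in Ptprc-low cells was -0.0169 and Timd4 for line in phagocytes 0.0049. Timd4 for line was 0.4179 with Xist-bearing cells only, 0.0531 with line alone and 0.3672 when thinned. In fibroblast-like cells, Pros1 was -0.026 for line and -0.1893 for diet, and Mfge8 -0.1064 for diet. In tumour-like cells, Pros1 was -0.0552 for diet and -0.4424 for line, and Gas6 -0.8137 for diet.

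Leaving out 1 library, diet values in phagocytes ran from -0.4796 to 0.1872 for Gas6, -0.5012 to 0.0863 for Pros1, -0.4185 to 0.0385 for Mfge8 and -0.856 to 0.0503 for Mertk. Line values there ran from -0.4429 to 0.3044 for Gas6, -0.0419 to 0.5185 for Pros1, -0.3442 to 0.2707 for Mfge8, -0.2354 to 0.3369 for Stab1 and -0.4514 to 0.4242 for Timd4. In Ptprc-low cells Axl ran from -0.2223 to 0.0224 for diet and -0.0506 to 0.2156 for line, Mfge8 from -0.0668 to 0.0778 for diet, Gas6 from -0.4572 to 0.1713 for line and Pros1 from -0.4254 to 0.9132 for line.

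With equal weight for every state, the log2 ratio of HFD_shYap over LFD_shYap was -0.0068 for Stab1, that of HFD_WT over LFD_WT was -0.2282 for Axl, and that of LFD_shYap over LFD_WT was 0.0004 for Pros1. Over clusters with 20 cells per library the last 2 were -0.2096 and 0.0224. Members with opposite diet ratios in the lines, in either direction, numbered 4, 4 and 5 under the phagocyte sum and these weightings. In the phagocyte sum, 6775 of the 12313 genes with at least 20 UMIs in every library had opposite ratios too. Opposite ratios alone are therefore common, and their share of all genes was not counted under the other weightings. At 1000 and 2000 UMIs, 6 members had a phagocyte share above the T cell share in every library. For Timd4 the margin was narrow, with 0.371% of phagocytes against 0.364% of T cells in LFD_shYap at 2000 UMIs.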

Other observations

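Cells left unnamed for low depth also held member RNA. The largest such cluster, 2720 cells with a median of 1055 UMIs and Malat1 among its leading genes, had 153 CPM of Gas6, 193 CPM of Mertk, 133 CPM of Axl and 716 CPM of Stab1. Its Mertk level lay between those of Kupffer-like and Jaml-high macrophages, and its Timd4 level was 0.544 CPM. A cluster of 1721 cells with Lars2 among its leading genes had 115 CPM of Gas6, 40.1 CPM of Mertk and 214 CPM of Stab1. By library, Gas6 in the Malat1 cluster was at 180, 101, 139 and 165 CPM (LFD_WT, LFD_shYap, HFD_WT and the library labelled HFD_shYap), lowest in LFD_shYap as in the named states.

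Among the other TAM genes, Tyro3 was at 5.34 CPM in fibroblast-like and 6.18 CPM in tumour-like cells against 0.0754 CPM in phagocytes. Stab2, the second stabilin, known from sinusoidal endothelium, was at 36.2 CPM in Kupffer-like cells and 22.4 CPM in the mixed Igfbp7 cluster, against 0.456 CPM in all phagocytes.

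The 51 cells of the mixed Igfbp7 cluster had 108 CPM of Gas6, 71.4 CPM of Pros1 and 231 CPM of Mfge8. Its 130 Gas6 UMIs included 41 from 2 of the 8 cells of LFD_shYap.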
